A study of Mus musculus with 14 samples.

Results

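The genes described are 6 inhibitors of cyclin-dependent kinases (CDKs), the 4 INK4 genes Cdkn2a, Cdkn2b, Cdkn2c and Cdkn2d and the Cip/Kip genes Cdkn1a and Cdkn1b. Their members are the H3K27me3 peaks within 10 kb of the RefSeq gene body of any of them, which came to 24 of the 74458 peaks in the counts table. Cdkn2a had 9 such peaks, Cdkn2b 5, Cdkn2c 6, Cdkn2d 2, Cdkn1a 2 and Cdkn1b 3, and 3 peaks between Cdkn2a and Cdkn2b belong to both.

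H3K27me3 was mapped by Cut&Tag, which tethers a transposase to an antibody on chromatin, in mouse embryonic stem cells (mESCs) that carried a CRISPR-Cas9 deletion of a Polycomb loop anchor. The anchor deleted was the Hoxa cluster (Hoxa2 to Hoxa13; 3 libraries), Wnt6 (2 libraries) or Hmx1 (2 libraries), and the 7 IgG libraries were not analysed here. All cells derived from G4 mESCs, a 129/Sv × C57BL/6 F1 hybrid line, and were grown with leukemia inhibitory factor on CD1 feeder cells. The table has no unedited cells, so each deletion was compared with the other 2 pooled, and all 3 comparisons draw on the same 7 libraries. The paper treats each deletion as a clone, while the labels name none, so that a difference between deletions cannot be told apart from one between clones, and p-values measure the spread between libraries that may share a culture. The paper describes homozygous deletions of the anchors and, for Wnt6, also a heterozygous one in mESCs, while the labels give no zygosity. The legend in the paper counts more replicates of the Wnt6 and Hmx1 deletions than the libraries analysed here.

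Totals over the peaks ran from 6016500 to 36563541 counts and overlapped between deletions. Replicates of a deletion differed by more than counting noise, with a chi-square of 1.949 to 3.309 per degree of freedom over peaks. This does not show what kind of replicate they are. In the Hoxa deletion, 46 consecutive peaks at chr6:52163046-52274461 (mm10, as deposited) lay under 10% of the mean of the other libraries. All values are counts scaled to a library total of 1000000 (CPM), with trimmed mean of M values (TMM) factors. Of 7 mESC marker loci, where H3K27me3 should be low, 6 had a peak, and their levels ran from 5.73 CPM per kb of peak at Nanog to 18.5 at Sox2, where the median over all peaks was 7.74. Nanog, Pou5f1 and Zfp42 lay below that median, and Klf4, Esrrb and Sox2 above it. The seventh, Tdgf1, had no peak.

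CDK inhibitors hold cells in G1 by blocking the kinases that phosphorylate the retinoblastoma protein. INK4 proteins bind CDK4 and CDK6 alone, whereas the Cip/Kip proteins bind a wider range of cyclin-CDK complexes. The Cdkn2a-Cdkn2b locus is a textbook Polycomb target: PRC2 writes H3K27me3 over it in young proliferating cells and the mark is lost when cells enter senescence.

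Gene starts differed in CpG content, the sequence feature most closely tied to Polycomb recruitment in mammals. The 250 bases before 5 of the annotated starts are given, from RefSeq on GRCm38.p6, 5′ to 3′ on the gene's own strand, with each CG dinucleotide in capitals (CG reads the same on both strands). They were chosen to set the start with the most CG beside the start of Cdkn2a inside the same locus that is poor in CG. The starts of the 2 genes whose H3K27me3 differed between deletions are given with them.
Cdkn2a start 1, chr4:89294620-89294869, minus strand: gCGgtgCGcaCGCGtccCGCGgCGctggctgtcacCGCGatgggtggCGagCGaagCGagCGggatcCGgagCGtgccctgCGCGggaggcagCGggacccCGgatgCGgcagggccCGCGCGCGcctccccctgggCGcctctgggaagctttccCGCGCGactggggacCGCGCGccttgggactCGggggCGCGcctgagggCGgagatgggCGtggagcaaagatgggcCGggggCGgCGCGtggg
Cdkn2a start 2, chr4:89282193-89282442, minus strand: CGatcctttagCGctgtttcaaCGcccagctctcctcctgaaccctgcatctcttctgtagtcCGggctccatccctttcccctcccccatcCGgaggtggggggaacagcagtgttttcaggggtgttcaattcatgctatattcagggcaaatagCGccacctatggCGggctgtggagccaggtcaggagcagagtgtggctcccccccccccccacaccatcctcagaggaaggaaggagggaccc
Cdkn1a start 1, chr17:29090729-29090978, plus strand: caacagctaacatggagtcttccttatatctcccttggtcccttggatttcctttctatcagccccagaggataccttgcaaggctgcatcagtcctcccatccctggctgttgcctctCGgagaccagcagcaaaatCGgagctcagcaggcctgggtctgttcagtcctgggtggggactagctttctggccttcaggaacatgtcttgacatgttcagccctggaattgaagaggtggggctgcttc
Cdkn1a start 2, chr17:29093519-29093768, plus strand: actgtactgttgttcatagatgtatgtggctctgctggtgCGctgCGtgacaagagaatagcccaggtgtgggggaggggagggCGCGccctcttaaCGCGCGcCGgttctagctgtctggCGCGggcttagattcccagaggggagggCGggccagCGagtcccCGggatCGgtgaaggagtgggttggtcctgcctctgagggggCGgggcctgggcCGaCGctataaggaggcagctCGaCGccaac
Cdkn1b start, chr6:134920151-134920400, plus strand: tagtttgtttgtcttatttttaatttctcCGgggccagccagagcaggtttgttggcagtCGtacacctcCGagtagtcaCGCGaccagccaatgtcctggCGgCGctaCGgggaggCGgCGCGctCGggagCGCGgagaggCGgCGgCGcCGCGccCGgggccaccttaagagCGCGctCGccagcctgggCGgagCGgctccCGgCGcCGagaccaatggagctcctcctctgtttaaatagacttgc

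Of the 9 annotated starts of the 6 genes, 8 (88.9%) lay under a peak, where 51.6% of the 21263 starts of protein-coding genes did. The first start of Cdkn2a, from which the ARF transcript begins, held 40 CG in 250 bases, more than 98.3% of all starts. The second start, that of the p16 transcript, held 7 CG, fewer than the median of 10 over all starts, and also lay under a peak. The start without a peak was the upstream one of Cdkn1a, which held 2 CG and lay 2515 bp from the nearest peak. The other start of Cdkn1a held 19 CG and that of Cdkn1b 28. Cdkn2b held 12 CG at its start, Cdkn2c 29 and 6 at its starts, and Cdkn2d 16. The order by CG was not the order by H3K27me3. The peak over the Cdkn2b start held 99.4 CPM per kb, while that over the Cdkn1b start held 11.8. Starts under a peak had a median of 17 CG genome-wide and those without a peak 3, and a CG was found in 93.4% of all windows of this length. A count of CG describes the sequence and not a binding site.

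Cdkn2c, Cdkn2a and Cdkn2b had the highest levels, Cdkn1a lay apart below them, and Cdkn2d and Cdkn1b were lowest. Summed over its peaks and divided by their length, Cdkn2c held 52.5 ± 2.59 CPM per kb (SD over 7 libraries), Cdkn2a 49.9 ± 2.08 and Cdkn2b 47.6 ± 4.12. These placed them above 95.9%, 95% and 94.2% of all genes with a peak within 10 kb. Their ranges overlapped, and the order among them is not resolved: Cdkn2c exceeded Cdkn2a in 6 of 7 libraries, and Cdkn2a exceeded Cdkn2b in 5.

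Cdkn1a lay between these and the lowest loci at 22.2 ± 5.60 CPM per kb, below Cdkn2b in all 7 libraries by 1.53-fold to 3.53-fold. It stayed above Cdkn2d, at 10.4 ± 1.23, in all 7 libraries. Cdkn1b had the lowest mean, 8.28 ± 2.55 CPM per kb, but lay below Cdkn2d in only 5 of 7. The 3 highest loci also had more of their surroundings marked, with 20.5% of the window under peaks at Cdkn2c, 18.7% at Cdkn2a and 12.6% at Cdkn2b, against 9.92% at Cdkn1a, 8.83% at Cdkn1b and 5.79% at Cdkn2d. The order of the 3 highest depended on the window, since within 2 kb Cdkn2b came first at 73.3 CPM per kb, before Cdkn2a at 57.1 and Cdkn2c at 51.2, and within 25 kb it came first at 52.3, before Cdkn2a at 50.8 and Cdkn2c at 43.8. Cdkn1a stayed between the 3 highest and the other 2 with both windows.

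**Figure D1:**
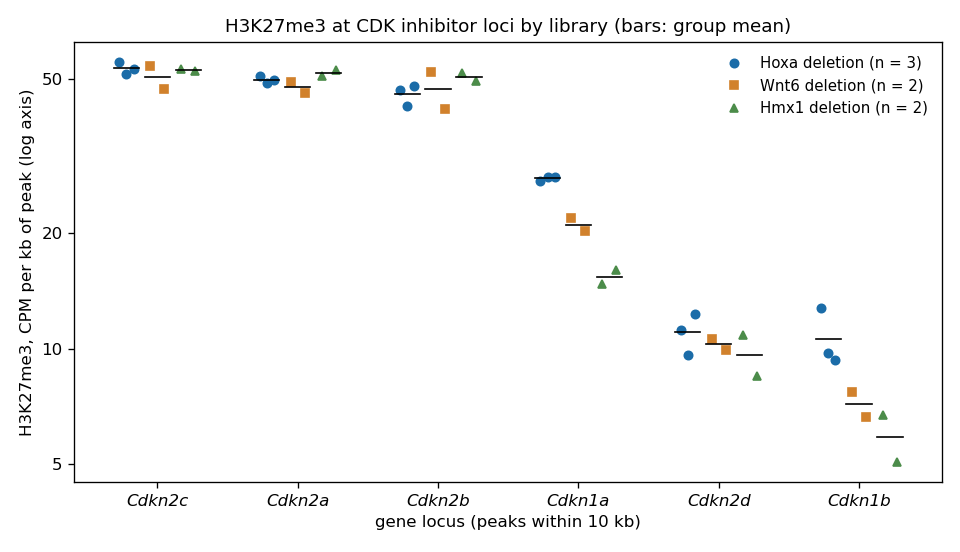
H3K27me3 at each locus in CPM per kb of peak (log axis), with a point for each library and a bar for the mean of each deletion. Cdkn2c, Cdkn2a and Cdkn2b sit between 41.9 and 55.3 in every library, while Cdkn1a steps down from the Hoxa to the Wnt6 to the Hmx1 deletion.

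Cdkn2a encodes both p16INK4a and ARF, the latter an inhibitor of Mdm2, and Cdkn2b encodes p15INK4b. Their 11 peaks spanned 38.1 kb on chromosome 4 and held a nearly equal total in every library. In CPM that total was 492, 462 and 487 in the Hoxa deletion, 495 and 444 in the Wnt6 deletion, and 509 in both Hmx1 libraries. The 3 deletions overlapped, except that both Hmx1 libraries were above all the others, their mean at 107% of that of the other 5.

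The peak with the most counts of the 11 was the one over the first Cdkn2a start (chr4:89294168-89296151), which held 140, 133 and 132 CPM in the Hoxa deletion, 137 and 124 in the Wnt6 deletion, and 143 and 141 in the Hmx1 deletion. The peak over the Cdkn2b start (chr4:89310432-89311150) was the densest of all members, at 99.4 CPM per kb, above 99.6% of all peaks. Its libraries ranged from 60.3 to 84.0 CPM, and this spread lay within deletions as much as between them, with 80.8 and 61.8 CPM in the Wnt6 deletion and 84.0 and 69.3 in the Hmx1 deletion.

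Per kb, the densest Cdkn2a peak was one over the 3′ part of the gene (chr4:89276269-89277132) at 73.5 CPM per kb, ahead of the first start peak at 68.4 and of the peak over the second start. The second densest Cdkn2b peak lay inside the gene (chr4:89306680-89307478) at 49.8. Inside Cdkn2a, the peak between its first and second starts held only 20.8 CPM per kb. Between the genes, the 3 shared peaks dropped to 16.7 to 26.9 CPM per kb. They lie in Gm12610, an annotated gene that also overlaps both the first Cdkn2a start peak and Cdkn2b, so that the mark there cannot be assigned to 1 gene.

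**Figure D2:**
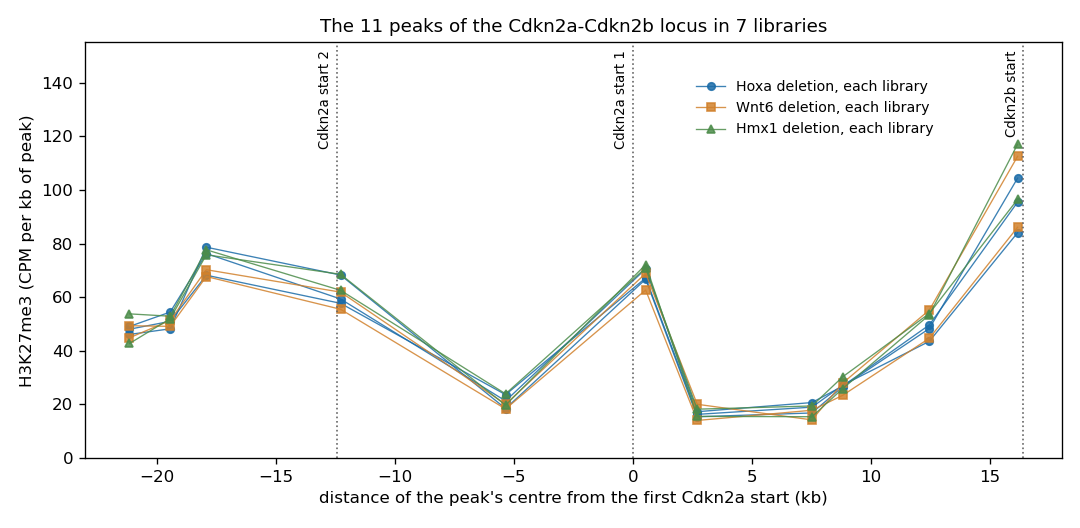
H3K27me3 of the 11 peaks of the Cdkn2a-Cdkn2b locus in CPM per kb against the distance of each peak's centre from the first Cdkn2a start, with a line for each of the 7 libraries. The libraries of the 3 deletions trace the same profile, high at the starts and over the 3′ part of Cdkn2a. It is low in the stretch between the genes, where the lowest mean is 16.7, and at the peak between the first and second Cdkn2a starts (20.8).

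Cdkn2c encodes p18INK4c. Its start peak (chr4:109665088-109667258), which covers both annotated starts, held 127, 124 and 124 CPM in the Hoxa deletion, 126 and 106 in the Wnt6 deletion, and 127 and 120 in the Hmx1 deletion. A second strong peak 3′ of the gene (chr4:109656878-109658202) overlaps 9630013D21Rik and was denser still, at 91.6 CPM per kb, above 99.3% of all peaks. The groups overlapped at both. Farther out on the same side, 8949 bp from the gene, a weak peak at chr4:109651593-109651927 held 0.653 to 1.86 CPM and had the smallest p of the member peaks in the Wnt6 comparison (log2 fold change −0.74, SE 0.43, edgeR adjusted p = 0.920), which did not pass.

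Cdkn2d, which encodes p19INK4d, was the INK4 gene with little H3K27me3. Its start peak on chromosome 9 (chr9:21290850-21291591) held 11.6, 9.32 and 11.7 CPM in the Hoxa deletion, 10.5 and 9.90 in the Wnt6 deletion, and 11.2 and 8.26 in the Hmx1 deletion, all overlapping. At 14.0 CPM per kb it lay close to the 13.1 that was the median of all peaks at protein-coding starts. The second Cdkn2d peak (chr9:21287726-21288314) overlaps Kri1 and held 2.99 to 4.64 CPM.

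None of the 19 peaks of the 4 INK4 genes passed in any comparison. In edgeR's quasi-likelihood test the smallest adjusted p among them was 0.510 for the Hoxa, 0.920 for the Wnt6 and 0.736 for the Hmx1 deletion. None had an unadjusted p under 0.05 in any of the 3, and DESeq2 gave 0 with an adjusted p under 0.05. The 95% intervals of the log2 fold change were given for whole loci and were widest at Cdkn2d. In the Hoxa comparison they ran from −0.13 to 0.13 at Cdkn2a, from −0.23 to 0.06 at Cdkn2b, from −0.09 to 0.18 at Cdkn2c and from −0.10 to 0.43 at Cdkn2d. In the Wnt6 comparison they ran from −0.22 to 0.05 at Cdkn2a, from −0.25 to 0.20 at Cdkn2b, from −0.23 to 0.09 at Cdkn2c and from −0.38 to 0.33 at Cdkn2d. In the Hmx1 comparison they ran from −0.05 to 0.21 at Cdkn2a, from −0.08 to 0.33 at Cdkn2b, from −0.14 to 0.18 at Cdkn2c and from −0.53 to 0.16 at Cdkn2d.

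Cdkn1a and Cdkn1b were the loci that differed. Cdkn1a encodes p21, the main p53 target among CDK inhibitors. Its start peak (chr17:29093494-29095660), which covers the start rich in CG, held 74.2, 73.4 and 74.4 CPM in the Hoxa deletion, 59.1 and 55.2 in the Wnt6 deletion, and 40.4 and 42.8 in the Hmx1 deletion. The 3 deletions did not overlap, and the Hoxa libraries were the highest and the Hmx1 libraries the lowest. The Hoxa deletion exceeded the others by 0.58 on the log2 scale (SE 0.10, edgeR adjusted p = 7.4e-05), the smallest p of the member peaks in this comparison and below the minimum of 1 set for a call.

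The other Cdkn1a peak lies upstream, outside any annotated gene (chr17:29080815-29081600), and held 6.35, 8.67 and 7.73 CPM in the Hoxa deletion, 5.15 and 4.31 in the Wnt6 deletion, and 3.04 and 4.29 in the Hmx1 deletion. It ran in the same order, with Hoxa 0.85 above the others on the log2 scale (SE 0.18, edgeR adjusted p = 0.000727). With all libraries downsampled to the smallest, the difference was 0.66 and no longer passed.

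Cdkn1b encodes p27, which restrains CDK2 in quiescent cells. Its start peak (chr6:134919643-134920724) held 19.7, 14.5 and 13.9 CPM in the Hoxa deletion, 13.5 and 9.80 in the Wnt6 deletion, and 10.1 and 8.11 in the Hmx1 deletion. The Hoxa libraries were above all the others, if narrowly in replicate 3, while the Wnt6 and Hmx1 libraries overlapped. The log2 difference of Hoxa from the others was 0.64 (SE 0.15, edgeR adjusted p = 0.00313). It did not pass without Hoxa replicate 1, at 0.48, or against the Wnt6 deletion alone, at 0.48.

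The peak that passed the fold minimum was downstream of Cdkn1b, outside any annotated gene (chr6:134926847-134927701). It held 5.99, 5.01 and 5.16 CPM in the Hoxa deletion, 2.37 and 2.85 in the Wnt6 deletion, and 3.04 and 1.61 in the Hmx1 deletion. The Hoxa libraries were clear of all the others, by 1.15 on the log2 scale (SE 0.22, edgeR adjusted p = 0.000256). At 4.35 CPM per kb it was denser than only 10.5% of all peaks, and its counts ran from 18 upward. Without Hmx1 replicate 2 the difference was 0.95, and against the Wnt6 deletion alone 0.99, under the minimum in both. The third Cdkn1b peak (chr6:134928396-134928680) held 1.23 to 2.59 CPM, with the groups overlapping (log2 difference 0.30, SE 0.30, edgeR adjusted p = 0.626).

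**Figure D3:**
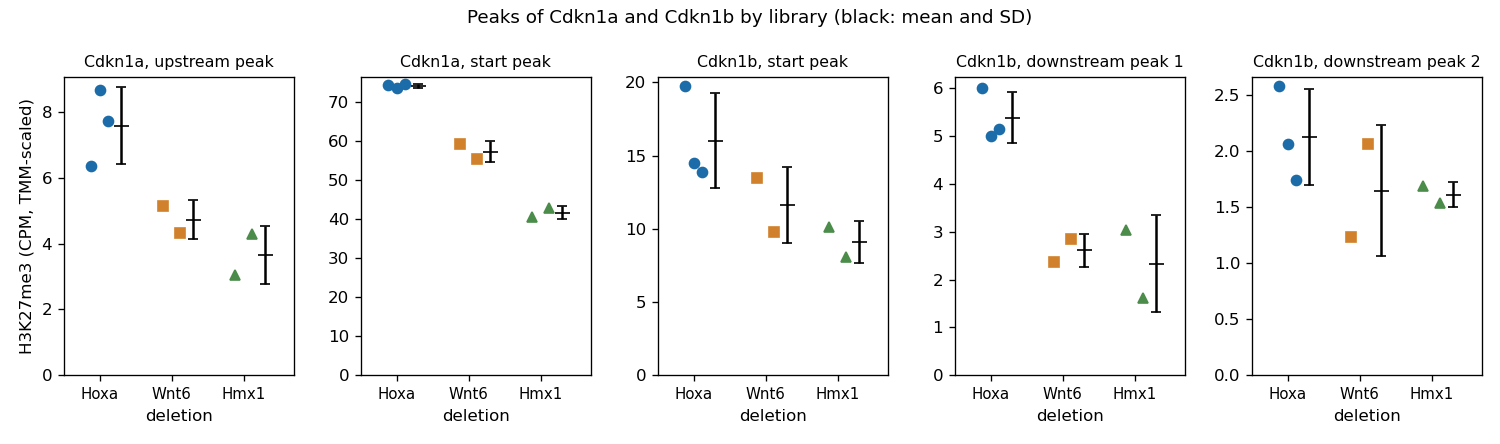
H3K27me3 in CPM at the 2 peaks of Cdkn1a and the 3 of Cdkn1b, with a point for each library and the mean and SD of each deletion in black (n = 3, 2 and 2). The Hoxa libraries lie above all others in the first 4 panels, and the start peak of Cdkn1a lies at 3 separate levels.

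Counted over the 24 peaks, 1 (4.17%) was called higher in the Hoxa deletion at a log2 difference over 1, where 1.55% of the 74441 peaks tested were called, 0.566% of them higher, and a single call among 24 says little beyond that background. DESeq2 also called 1 (background 1.31%). By adjusted p at any fold, 4 of 24 (16.7%) passed against 8.52% of all peaks, all 4 higher in the Hoxa deletion (background for higher 4.32%), and each of them belonged to Cdkn1a or Cdkn1b. These 4 were also the peaks where every Hoxa library exceeded all others, as did 9.09% of all peaks. That ranking draws on the values that made them pass, and peaks of 1 gene are not independent of each other. A complete order from Hoxa over Wnt6 to Hmx1 held at both Cdkn1a peaks and at 2.55% of all peaks. The median log2 difference over the 24 peaks was 0.04, next to −0.01 over all peaks.

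Neither of the other comparisons gave a call. In the Wnt6 deletion, edgeR called 0 of 24 peaks (background 0.0497%), with 0 at an unadjusted p under 0.05 (background 5.2%) and 0 called by DESeq2 (background 0.0524%). In the Hmx1 deletion it also called 0 (background 0.0282%), with 4 peaks at an unadjusted p under 0.05 (background 8.96%), the same 4 as above and all with lower values in the Hmx1 deletion, and 0 called by DESeq2 (background 0.0564%). The smallest p was that of the Cdkn1a start peak (log2 difference −0.69, SE 0.13, edgeR adjusted p = 0.0820, from 9.35e-06 to 0.971 over 16 alternatives). It passed at any fold in 6 of those. The Hoxa libraries are among the others in the Hmx1 comparison, so the same 4 peaks are not separate support.

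**Figure D4:**
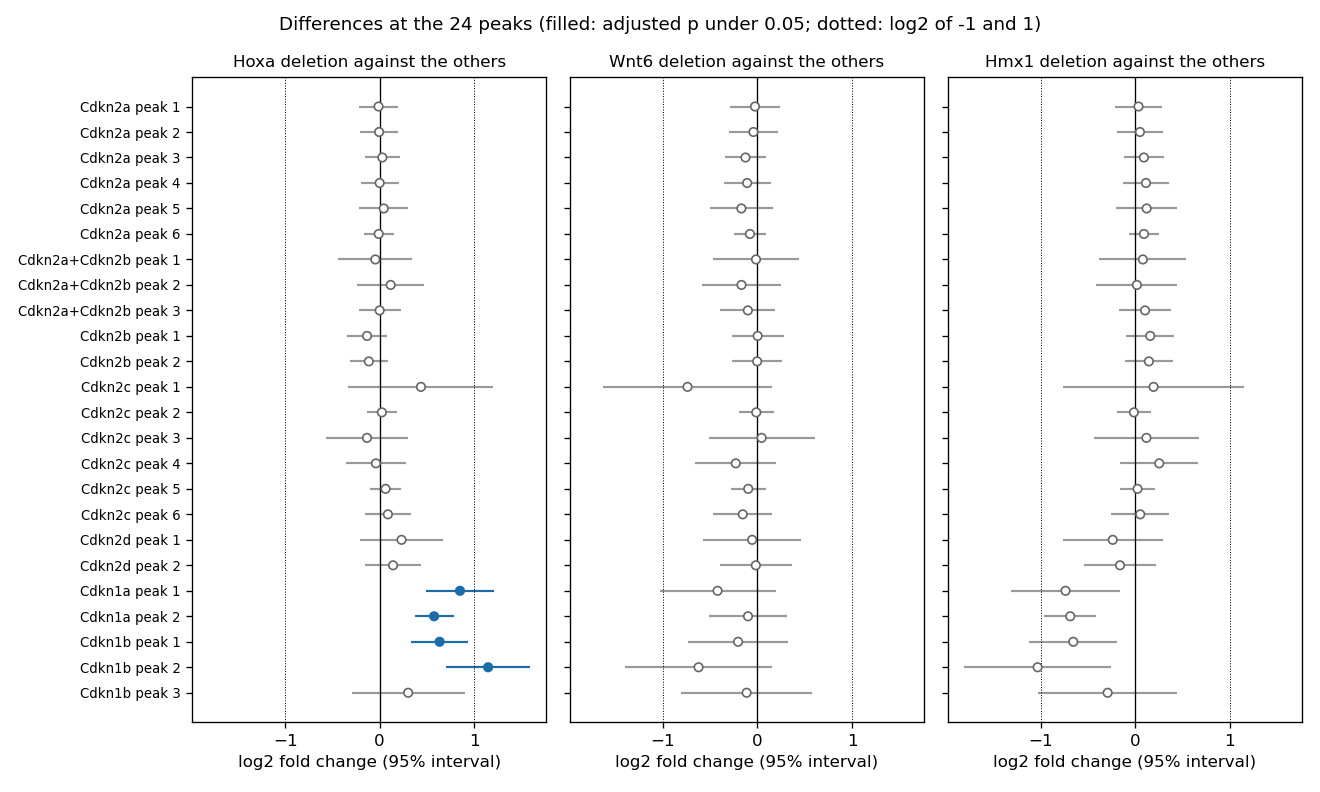
The log2 fold change with its 95% interval (edgeR) at each of the 24 peaks for the 3 comparisons of a deletion with the others pooled, filled where the adjusted p was under 0.05. The 4 filled points, from 0.58 to 1.15, are peaks of Cdkn1a and Cdkn1b in the Hoxa comparison, and no INK4 peak is filled, the one farthest from 0 being the weak Cdkn2c peak at −0.74 in the Wnt6 panel.

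For whole loci, edgeR called 0 of 6 at the fold minimum in the Hoxa comparison (background 0.775% of 30959 loci), with 2 at an unadjusted p under 0.05 (background 29.0%) and 0 called by DESeq2 (background 0.633%). At any fold 2 of 6 (33.3%) passed, both higher, against 18.3% of all loci of which 12.2% were higher. With 6 loci the difference from this background is about 1 locus. Cdkn1a held 81.6 ± 0.907 CPM in the Hoxa (SD, n = 3), 61.9 ± 3.30 in the Wnt6 (n = 2) and 45.3 ± 2.56 in the Hmx1 deletion (n = 2), and exceeded the others in the Hoxa deletion by 0.60 on the log2 scale (95% interval 0.41 to 0.78, edgeR adjusted p = 2.78e-06). Cdkn1b held 23.5 ± 4.16, 15.9 ± 1.68 and 13.1 ± 2.56 CPM, a log2 difference of 0.71 in the Hoxa deletion (95% interval 0.44 to 0.97, edgeR adjusted p = 6.85e-05). Over 18 alternatives the adjusted p ran from 1.72e-10 to 0.000128 for Cdkn1a and from 2.2e-06 to 0.00268 for Cdkn1b. Whether the change at these loci differed from that at the INK4 loci was not tested.

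In the Wnt6 and Hmx1 comparisons 0 of 6 loci were called (background 0.0388% and 0.0291%), with 0 and 2 at an unadjusted p under 0.05 (background 5.77% and 13.3%) and 0 called by DESeq2 in both (background 0.0388% and 0.0485%). The log2 difference of the Hmx1 deletion was −0.70 at Cdkn1a (95% interval −0.99 to −0.40, edgeR adjusted p = 0.109, 8.08e-08 to 0.758 over 18 alternatives) and −0.67 at Cdkn1b (−1.18 to −0.17, edgeR adjusted p = 0.252, 0.00232 to 0.758).

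In a fit with a term for each genotype, which takes the difference between the Hoxa and Wnt6 libraries out of the spread, any difference between the 3 deletions passed at 4 of the 24 peaks, with 7.13% of all peaks as background, and these were the 4 named above. At Cdkn1a all 3 pairs of deletions differed in the locus sum, with Hoxa above Wnt6 by 0.41, Hoxa above Hmx1 by 0.84 and Wnt6 above Hmx1 by 0.43 in log2, and edgeR's adjusted p-values were 0.000224, 3.78e-11 and 0.00934. The background for these pairs was 14.1%, 18.3% and 0.775% of all loci. At Cdkn1b Hoxa exceeded Wnt6 by 0.57 and Hmx1 by 0.89 (edgeR adjusted p = 0.00255 and 6.32e-06), and the difference of 0.33 between Wnt6 and Hmx1 did not pass (SE 0.17, edgeR adjusted p = 0.512).

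Over the whole chromosomes of Cdkn1a and Cdkn1b the median difference was small, and a cause of the differences was not tested. The median log2 difference of the Hoxa deletion was 0.02 on chromosome 17, which holds Cdkn1a, and 0.01 on chromosome 6, which holds Cdkn1b 82.6 Mb from the deleted Hoxa stretch. Within 100 kb of Cdkn1a, 8 other peaks had a median of 0.25, from −0.095 to 0.99, and 1 of them passed, higher in the Hoxa deletion. The one at 0.99 lay within 25 kb and did not pass, although its difference was larger than that of either Cdkn1a peak. Within 100 kb of Cdkn1b, 4 other peaks had a median of 0.16, from −0.33 to 0.32, and 1 passed, also higher. Among all peaks 4.32% passed as higher.

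The 4 fibroblast marker loci with a peak, read for the feeder cells, summed to 621 to 676 CPM in the Hoxa, 592 to 628 in the Wnt6 and 632 to 654 in the Hmx1 libraries, and none passed in any comparison. The 6 mESC marker loci summed to 386 to 401 CPM in the Hoxa libraries, above the 329 to 343 of the Wnt6 and the 352 to 366 of the Hmx1 libraries. Most of this sum came from Esrrb, with means of 259, 229 and 249 CPM, which did not pass (edgeR adjusted p = 0.248). Zfp42 went the other way, lower in the Hoxa deletion by 0.55 on the log2 scale (SE 0.24, edgeR adjusted p = 0.113). Of the 6, only Klf4 passed, higher in the Hoxa deletion by 0.60 on the log2 scale (SE 0.09, edgeR adjusted p = 2.31e-06). Among all loci 18.3% passed in this comparison, 12.2% as higher, so 1 of 6 says little beyond that background. Whether these differences at marker loci bear on the results at Cdkn1a and Cdkn1b was not tested.

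The other genes of the pathway were read from a list of 20, namely the remaining inhibitor Cdkn1c, cyclins, their kinases, pocket proteins, E2F factors, Mdm2 and the Polycomb genes Bmi1 and Cbx7. None of the 20 loci was called at the fold minimum in any comparison. In edgeR's test at any fold, 3 were higher and 1 lower in the Hoxa deletion, 4 of 20 beside a background of 18.3% (12.2% higher and 6.13% lower). In the Wnt6 and Hmx1 comparisons 0 passed (background 0.0452% and 0.0517%). At an unadjusted p under 0.05 there were 2 of 20 and 3 of 20, beside 5.77% and 13.3% of all loci. The median log2 difference in the Hoxa deletion was 0.11, next to 0.05 over all loci.

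The loci with the most H3K27me3 were Cdkn1c, the imprinted inhibitor p57, at 72.0 ± 3.07 CPM per kb, Bmi1, a PRC1 subunit, at 67.4 ± 4.56, and Ccna1, a germ-line cyclin, at 35.9 ± 1.31 (SD over 7 libraries). Cdkn1c and Bmi1 thus exceeded all 6 members. Among the 4 that passed, Cdk6, the kinase that INK4 proteins block, held 88.0 ± 4.70 CPM in the Hoxa, 55.1 ± 0.406 in the Wnt6 and 63.8 ± 1.60 in the Hmx1 deletion, a log2 difference of 0.57 (SE 0.08, edgeR adjusted p = 3.65e-07). E2f2 was higher by 0.57, and Cdk4 by 0.27. Rbl2, a pocket protein, was lower by 0.69 on the log2 scale in the Hoxa deletion. It lies on chromosome 8, as does the marker Zfp42, which was lower by 0.55 without passing. Whether chromosome 8 as a whole was lower in the Hoxa deletion was not tested. The 4 that passed were named after their values were seen.

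The loci whose pattern over the 7 libraries was most like a member were sought among 22740 genes by Pearson's r of log2 CPM, a description over libraries that share their depth and scaling. The nearest to Cdkn2a were Fam174b (r = 0.993), Foxd4 (0.988) and Gm10710 (0.987), where Cdkn2a itself spanned only 0.19 on the log2 scale. The nearest to Cdkn1a was the lncRNA 5033417F24Rik (r = 0.997), which held means of 122, 86.8 and 63.3 CPM in the Hoxa, Wnt6 and Hmx1 deletions. The nearest to Cdkn1b was Timm50 (r = 0.997), with 52.7, 44.5 and 40.8 CPM.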

How the data were processed

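H3K27me3 was profiled by Cut&Tag in 7 libraries, and the authors deposited raw counts over 74458 peaks in 1 table, without normalization. The submitters' processing notes name Trimmomatic, Bowtie2, SAMtools, Picard, MACS2, deepTools and mm10, with no versions or roles. How the peak list was made, and whether reads or fragments were counted, is not given in the sources used here, and peaks strong only in libraries outside the list's making could be missing. Peak positions are as deposited, with the start convention not stated. RefSeq gene bodies and starts are of GRCm38.p6, the same build.

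Analyses used edgeR 4.0.16, DESeq2 1.42.0 and limma 3.58.1 in R 4.3.3, and Python 3.11.15 with pandas 2.3.3, numpy 2.4.6 and matplotlib 3.10.9. The filter was filterByExpr by genotype and scaling was by TMM. Each deletion was tested against the other 2 pooled with glmQLFit and glmQLFTest, Benjamini-Hochberg adjusted over all 74441 peaks or 30959 gene loci tested. A call needed an absolute log2 fold change over 1, as in the study, and an adjusted p under 0.05. Standard errors were derived from the F statistic. Locus counts were sums over peaks within 10 kb of a gene, with the library sizes of the peak table. The fits were tested on simulated counts with changes larger than those seen at the members and with no differences between clones. Changes of the size reported here were not covered.

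Named peaks are, for each locus, the 2 densest by CPM per kb, every called peak and the member peak with the smallest p in each comparison. Of the cell cycle list, the rule names called loci, of which there were none, and the 3 densest, and the 4 that passed at any fold were named after their values were seen. Pattern-like genes had a mean summed count of at least 100 and shared no peak with a member, with a prior count of 2 in log2 CPM. The members, the cell cycle list and the marker lists (Pou5f1, Nanog, Sox2, Klf4, Esrrb, Zfp42 and Tdgf1 for mESCs, Col1a1, Col1a2, Col3a1, Pdgfrb and Thy1 for fibroblasts) were chosen with earlier results of these data known. Alternatives were library totals alone, RLE factors, DESeq2, a minimum mean count of 20 or no filter, genotype terms, comparison with each other deletion by itself, a replicate block, downsampling, chromosome medians removed, windows of 2 and 25 kb, no fold minimum and each library left out. Applying them to counts at any fold was chosen after seeing the data.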

Additional observations from a re-analysis of the deposited data

How the results depend on the processing

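Of 1443 alternative values, 1290 kept the direction and the side of the threshold or, without a test, stayed within 1.5 times for a count and within 1 SD over the libraries for a level. Another 98 were log2 differences that crossed 0 while neither value passed, from main values of up to 0.62 in size. For the peaks called in the Hoxa deletion, 1 in the main analysis, the count was 0 against the Wnt6 deletion alone, 4 without the fold minimum, and 0 to 1 with a library left out (0 without Hmx1 replicate 2). At any fold the 4 peaks of the Hoxa deletion became 3 to 4 with a library left out. In the Wnt6 deletion, against the Hoxa deletion alone, 3 peaks and 2 loci passed at any fold, and against the Hmx1 deletion alone 1 locus. In the Hmx1 deletion, against the Hoxa deletion alone, 1 peak was called and 4 peaks and 2 loci passed at any fold, and against the Wnt6 deletion alone 1 locus passed. At any fold the Hmx1 deletion also gave 1 peak with DESeq2, with library totals alone, with genotype terms and with chromosome medians removed, and 0 to 1 with a library left out (1 without either Wnt6 replicate). Its loci came to 1 with DESeq2, 2 with genotype terms, 1 with chromosome medians removed and 0 to 1 with a library left out (1 without Wnt6 replicate 2). Pooling the Hoxa and Wnt6 libraries leaves their difference in the spread, which genotype terms remove, and the cause of the other changes was not tested. Loci called in the Hoxa deletion came to 2 without the fold minimum. Of the 5 neighbouring pairs in the order of levels, 3 kept their order with a window of 2 kb and 3 with one of 25 kb. The log2 difference of the Wnt6 deletion at Cdkn1a, −0.12 against the others, was 0.43 against the Hmx1 deletion alone.

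The labels do not say whether replicate numbers pair the libraries. Deviations of same-numbered libraries from their group means correlated at −0.04 to 0.08, and those of differently numbered ones at −0.11 to 0.11. With 2 libraries in a group the deviations mirror each other, so these values cannot show whether libraries were prepared together. With the replicate number as a block, the Hoxa deletion again gave 1 called peak, and 4 peaks and 2 loci at any fold, the Wnt6 and Hmx1 deletions gave 0, and no count of calls changed.

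Depth limits the weak peaks most. At the Cdkn2c peak with 11 counts in the smallest library, the 95% interval of the Hoxa comparison ran from −0.33 to 1.20, which includes both 0 and a difference of the size seen downstream of Cdkn1b. The 2 libraries each of the Wnt6 and Hmx1 deletions limit every comparison.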
